A study of Mus musculus with 12 samples.

Results

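The active and the Polycomb-repressed chromatin of young mesenchymal stem cells (MSCs) was described from 6 of the 12 libraries of the series. They were 3 H3K27ac and 3 H3K27me3 libraries of MSCs from mice aged 3 to 5 months, grown at 2% O2. MSCs are stromal cells able to give rise to bone, fat and cartilage. All 6 libraries share the age and the culture, and the labels give neither a strain nor the tissue of origin. The profiles were made by CUT&RUN, in which an antibody tethers a nuclease to a chromatin mark and the released DNA is sequenced, and the cells of each sample were split between the antibodies. The libraries of old mice were not used here. Regions carry a state in the deposited files, and those of the young state or of both ages were kept. This left 31468 of 31617 H3K27ac regions and 28044 of 28047 H3K27me3 regions. Each of 21938 protein-coding genes was then placed by the start of its gene record, its transcription start site (TSS), as lying under H3K27ac only, H3K27me3 only, both marks or neither.

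H3K27ac is deposited by acetyltransferases such as p300 and CBP and is found at active promoters and enhancers. H3K27me3 is written on the same lysine by the EZH1 and EZH2 subunits of Polycomb repressive complex 2 and keeps developmental genes of other lineages silent, often over broad domains. The same lysine residue cannot carry both, so a start site under both marks in a bulk profile comes from different histone tails, alleles or cells, which these data cannot tell apart. MSCs express stromal genes and can be directed to bone, fat or cartilage by differentiation signals.

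The label of the cells was compared with short sets of marker genes, which are smaller than the lists of the same cell types described later. These sets were chosen with earlier results of these data known, so they are not an independent check of the label. All 11 of 11 MSC markers lay under H3K27ac, 10 without H3K27me3 and 1, Twist2, with it. Of the markers of other cells that a stromal preparation could hold, 0 of 10 blood cell, 0 of 6 endothelial and 0 of 6 epithelial markers lay under H3K27ac. Of these, 7 blood cell markers, 5 endothelial markers and all 6 epithelial markers lay under H3K27me3, and the rest under neither mark. In the longer lists 20 of 21 stromal identity genes, 3 of 26 blood genes, 2 of 16 endothelial genes and 1 of 19 epithelial genes lay under H3K27ac, and 8 of the 21 stromal identity genes lay under H3K27me3.

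The promoter sequences of 6 genes are shown as examples of the classes, and for each single mark as windows with many and with few CGs. Each is the 250 bases upstream of a RefSeq transcript start (GRCm38.p6), written 5′ to 3′ on the strand of the gene, with every CG in capitals. Cebpa (chr7:35119043-35119292, plus strand) and Prrx1 (chr1:163313651-163313900, minus strand) lay under H3K27ac only. Olig2 (chr16:91225300-91225549, plus strand) and Alb (chr5:90460620-90460869, plus strand) lay under H3K27me3 only. Twist2 (chr1:91801211-91801460, plus strand) lay under both marks and Ptprc (chr1:138175306-138175555, minus strand) under neither.
Cebpa: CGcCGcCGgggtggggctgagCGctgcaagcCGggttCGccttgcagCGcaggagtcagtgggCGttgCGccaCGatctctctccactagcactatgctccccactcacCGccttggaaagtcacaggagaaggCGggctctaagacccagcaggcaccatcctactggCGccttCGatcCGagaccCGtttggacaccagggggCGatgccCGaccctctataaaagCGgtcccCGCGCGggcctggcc
Prrx1: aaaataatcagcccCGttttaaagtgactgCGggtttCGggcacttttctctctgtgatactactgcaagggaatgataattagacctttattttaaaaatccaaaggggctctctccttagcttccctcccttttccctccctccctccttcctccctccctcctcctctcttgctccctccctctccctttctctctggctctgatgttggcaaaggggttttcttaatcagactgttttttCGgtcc
Olig2: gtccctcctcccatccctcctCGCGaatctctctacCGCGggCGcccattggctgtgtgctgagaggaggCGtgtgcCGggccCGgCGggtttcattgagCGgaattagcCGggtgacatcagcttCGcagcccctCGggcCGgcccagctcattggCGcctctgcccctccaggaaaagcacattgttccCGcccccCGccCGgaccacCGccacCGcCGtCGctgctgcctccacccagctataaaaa
Alb: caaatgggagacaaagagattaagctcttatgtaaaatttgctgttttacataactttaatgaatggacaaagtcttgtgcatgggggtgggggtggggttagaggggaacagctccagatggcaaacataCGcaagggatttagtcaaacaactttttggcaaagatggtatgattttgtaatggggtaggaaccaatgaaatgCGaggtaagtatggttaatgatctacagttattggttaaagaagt
Twist2: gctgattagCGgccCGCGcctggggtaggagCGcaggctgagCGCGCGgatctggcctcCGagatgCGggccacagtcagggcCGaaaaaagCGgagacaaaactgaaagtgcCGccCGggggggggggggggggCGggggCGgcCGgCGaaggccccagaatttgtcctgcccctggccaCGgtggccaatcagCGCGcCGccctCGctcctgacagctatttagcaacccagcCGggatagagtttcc
Ptprc: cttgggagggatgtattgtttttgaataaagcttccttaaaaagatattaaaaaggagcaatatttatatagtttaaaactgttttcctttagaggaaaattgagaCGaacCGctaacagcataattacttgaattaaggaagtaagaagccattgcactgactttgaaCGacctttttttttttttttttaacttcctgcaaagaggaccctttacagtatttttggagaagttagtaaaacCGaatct
The Cebpa window held 22 CGs, against 4 in Prrx1, although both start sites lay under H3K27ac alone. The Olig2 window also held 22 CGs and the Alb window 2, both under H3K27me3 alone. Twist2 had 23 CGs, beside a median of 14 for windows under both marks. Ptprc had 4, beside a median of 2 for windows under neither. Another Ptprc window, at a different transcript start, held 2.

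The amount of DNA under the marks differed. H3K27me3 regions covered 609 Mb, or 22.4% of the genome, and H3K27ac regions covered 325 Mb, or 11.9%. The median H3K27me3 region measured 10.5 kb, with an interquartile range of 5 to 24.5 kb, and the median H3K27ac region 4 kb, with a range of 2.5 to 10 kb. Regions above 20 kb made up 30.7% of H3K27me3 regions and 75.1% of their length. For H3K27ac these shares were 12.5% and 55.5%. The longest H3K27me3 region over a start site ran for 644.5 kb on chromosome 11 (96075501 to 96720000, GRCm38) and held the start sites of 14 genes, among them Hoxb1 to Hoxb9 and Hoxb13, the homeobox genes that specify position along the body axis. The longest H3K27ac region, of 615 kb on chromosome 6 (98918001 to 99533000), lay over Foxp1, a forkhead transcription factor.

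The reads of the libraries were distributed accordingly. H3K27ac regions held 41.3%, 33.7% and 40.0% of the reads of young replicates 1 to 3, out of 5440912, 3792236 and 5523800 reads. H3K27me3 regions held 62.3%, 66.6% and 66.6% of 9947515, 9366713 and 7268562 reads. All 3 H3K27me3 libraries were above all 3 H3K27ac libraries, and H3K27ac replicate 2 had both the fewest reads and the lowest share. The 95% Wilson interval of each share was narrower than 0.1 percentage points and covers counting error only. The means were 38.3% ± 4.07 and 65.2% ± 2.51 (SD, n = 3), a difference of 26.8 percentage points (exact permutation test, two-sided, p = 0.10). With 3 against 3 libraries 0.10 is the smallest p that this test can give, which holds for every such test here. A p of 0.10 therefore records only that the libraries of the marks did not overlap. With same-numbered libraries of the marks paired, the exact permutation test gave p = 0.25, the smallest possible for 3 pairs. The labels do not state whether the replicates came from separate animals, so n counts samples.

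Signal per kb was expressed as RPKM, the reads of a region per kb of its length, scaled to a library of 1000000 reads. Each set of 3 densities given for a gene is the RPKM of the whole region over its start site, in replicates 1, 2 and 3 in that order. The median H3K27ac region had 1.23, 1.00 and 1.21 RPKM in replicates 1 to 3, a mean of 1.14 ± 0.125 (SD, n = 3). The median H3K27me3 region had 0.780, 0.790 and 0.788, a mean of 0.786 ± 0.00514 (SD, n = 3). The H3K27ac values did not overlap with the H3K27me3 values, and the H3K27me3 median was lower by 0.54 on the log2 scale (−0.54; exact permutation test, two-sided, p = 0.10). H3K27ac was thus the denser mark over the typical region. Over all regions pooled, which gives long regions more weight, the densities were nearer, at 1.18 ± 0.125 for H3K27ac and 1.07 ± 0.0411 for H3K27me3 (SD, n = 3), and the libraries of the marks overlapped. Scaled to the reads inside regions instead of all reads, the log2 difference of the medians was −1.31. Relative to the reads per kb outside its regions, H3K27ac was 5.21, 3.76 and 4.92-fold higher inside, and H3K27me3 5.74, 6.93 and 6.94-fold. The regions were called on these libraries together with the old ones, so a higher density inside them was fixed in advance. The share of reads in regions and the median density also depend on how the regions of each mark were called. How far the calling and the number of reads shaped the differences between the marks was not tested.

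The density of H3K27me3 depended on the length of the domain, and that of H3K27ac much less. H3K27me3 regions of 5 to 10 kb had a median of 0.713, 0.721 and 0.715 RPKM in the 3 libraries. Those of 50 to 100 kb had 1.02, 1.09 and 1.09, and those above 100 kb had 1.22, 1.33 and 1.34. Every library was therefore densest in its longest domains. H3K27ac regions had means of 1.32 up to 1 kb, 1.06 at 10 to 20 kb and 1.30 above 100 kb, with the shortest regions resting on a median of 7 reads.

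**Figure D1:**
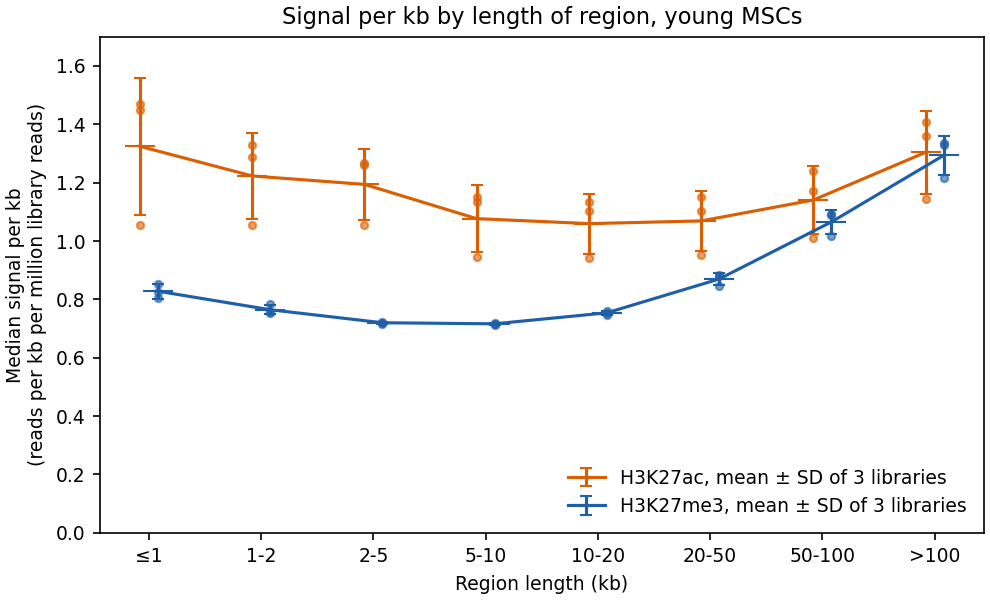
Median signal per kb of region (RPKM) against region length in kb, with points for the 3 young libraries of each mark, horizontal ticks for their mean and error bars for the SD. H3K27me3 rose from a mean of 0.716 at 5 to 10 kb to 1.29 above 100 kb, beside 1.30 for H3K27ac, while H3K27ac stayed between 1.06 and 1.32 throughout.

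Regions over a start site were longer than the rest, with medians of 10.5 against 3.5 kb for H3K27ac and 31 against 9 kb for H3K27me3. They were also denser. The median H3K27me3 region over a TSS had 1.43, 1.52 and 1.52 times the signal per kb of the other regions in replicates 1 to 3. For H3K27ac the ratios were 1.10, 1.14 and 1.02, so that all 3 H3K27me3 libraries lay above them. On the log2 scale the means were 0.57 ± 0.05 and 0.12 ± 0.08 (SD, n = 3), a difference of 0.46 (exact permutation test, two-sided, p = 0.10). These ratios were not matched for region length, with which H3K27me3 density rose. Whether start sites differed from other regions of the same length was not tested. In all, 8168 H3K27ac regions (26.0%) and 4716 H3K27me3 regions (16.8%) lay over a TSS.

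Along genes, H3K27ac was centred on the start site. The share of genes covered was 18.4% at 5 kb upstream, 40.3% at 1 kb upstream, 50.1% at the TSS and 31.7% at 5 kb downstream. H3K27me3 followed another course. It covered 35.5% of genes at 5 kb upstream, 30.9% at 1 kb upstream, 28.4% at the TSS and 25.5% at 5 kb downstream, so that more genes had the mark just upstream of the start than at it.

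**Figure D2:**
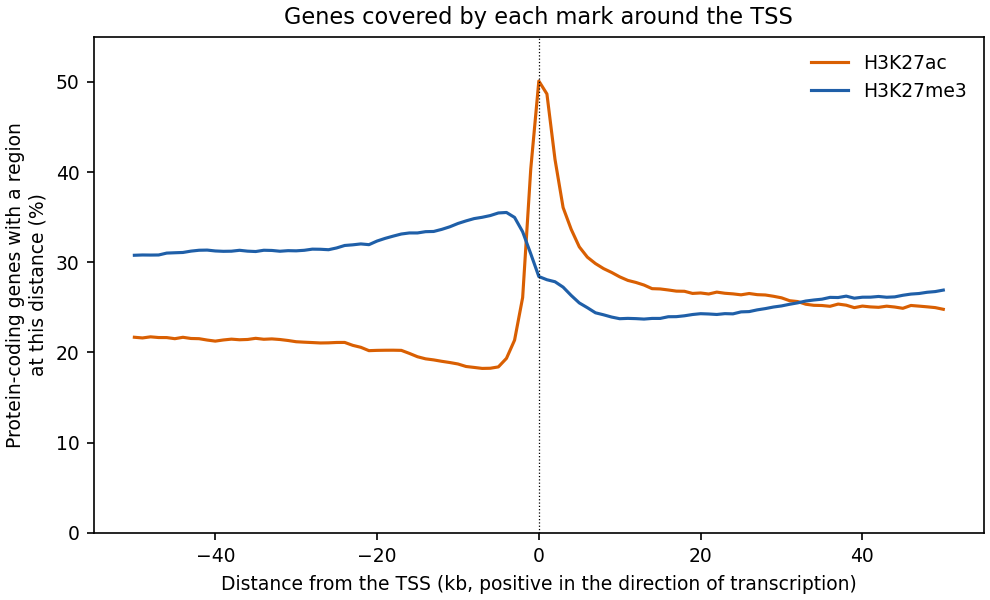
Share of 21938 protein-coding genes (%) with a region of each mark at a given distance from the TSS (kb, positive in the direction of transcription). H3K27ac peaked at 50.1% at the start site, and H3K27me3 stood at 35.5% at 5 kb upstream and at 28.4% at the start site.

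Of the 21938 genes, 10298 (46.9%) had their TSS under H3K27ac only, 5543 (25.3%) under H3K27me3 only, 691 (3.15%) under both and 5406 (24.6%) under neither. In all, 50.1% of genes were under H3K27ac and 28.4% under H3K27me3, whatever the other mark. These shares are the background for every gene group described here. The regions were called on pooled libraries, so these counts have no replicates. The genes under both marks were 6.29% of those under H3K27ac and 11.1% of those under H3K27me3. Across the genome the regions of both marks overlapped over 10.5 Mb, which was 3.23% of the H3K27ac length and 1.72% of the H3K27me3 length. The 5033 overlapping pieces had a median of 1.5 kb. Genes under neither mark were short, with a median of 8.32 kb, and lay a median of 170 kb from the nearest H3K27ac region and 111 kb from the nearest H3K27me3 region. Genes under H3K27me3 only lay a median of 26.3 kb from the nearest H3K27ac region.

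The chromosomes contributed unequally. H3K27ac regions covered 1.25% of chromosome X, against 9.70 to 19.9% of each autosome, and H3K27me3 regions covered 3.40%, against 20.6 to 30.8%. On X, 62.7% of 948 genes lay under neither mark and 0 under both. On the autosomes 22.3% of genes lay under neither mark. The median signal per kb of the X regions was 1.32, 0.949 and 1.26 for H3K27ac, against 1.23, 1.00 and 1.21 on the autosomes. For H3K27me3 it was 0.704, 0.759 and 0.780, against 0.782, 0.790 and 0.789. The reason for the low coverage of X was not tested, and an X-linked gene under neither mark should be read with this limit.

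The classes differed in promoter sequence, a feature that their definition did not use. A promoter was called CpG-rich where the 500 bp on each side of the TSS had a CpG observed over expected ratio of at least 0.6 and a GC content of at least 50%. This held for 72.3% of genes under H3K27ac only (95% Wilson interval 71.4 to 73.2), 56.9% of those under both (53.2 to 60.5), 28.4% of those under H3K27me3 only (27.2 to 29.6) and 6.07% of those under neither (5.46 to 6.74), against 44.4% of all genes. Read from the sequence, 76.5% of the 9738 CpG-rich promoters carried H3K27ac only, 16.1% H3K27me3 only, 4.04% both marks and 3.37% neither. Of the 12200 CpG-poor promoters, 23.4% carried H3K27ac only, 32.5% H3K27me3 only, 2.44% both and 41.6% neither. CpG-poor promoters were thus more often under H3K27me3 than under H3K27ac. In the upstream windows of the kind shown for Cebpa and Olig2, available for 16539 genes (75.4%), the median number of CGs was 16 for H3K27ac only, 14 for both, 6 for H3K27me3 only and 2 for neither. At least 1 CG was present in 93.7% of all 20150 windows. The CG motif reads the same on both strands.

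**Figure D3:**
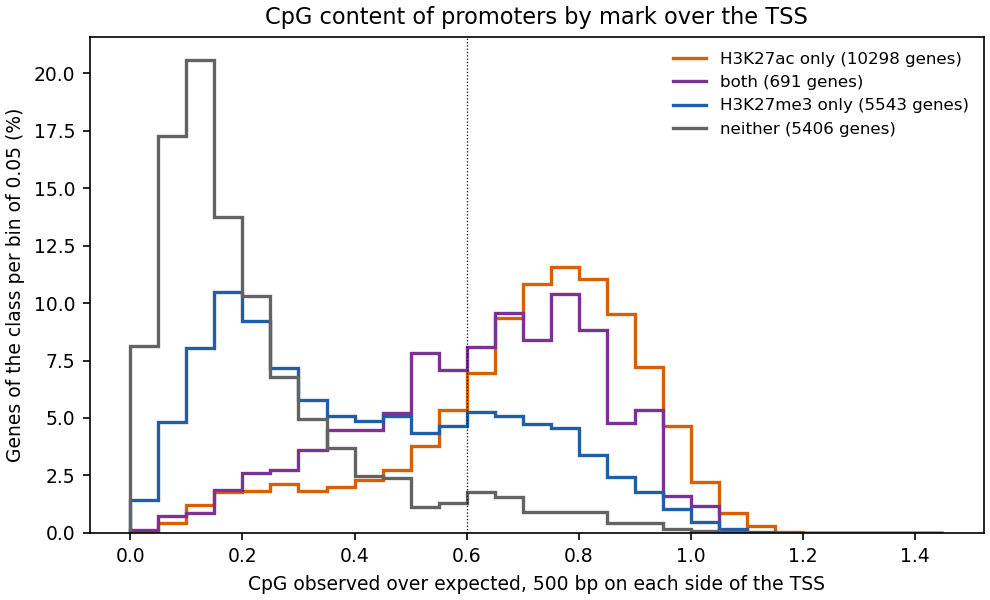
Share of the genes of each class (%) by CpG observed over expected ratio within 500 bp of the TSS, in bins of 0.05, with the cut-off of 0.6 dotted. Medians were 0.739 for H3K27ac only, 0.652 for both, 0.378 for H3K27me3 only and 0.162 for neither, and the H3K27me3-only genes spread over the whole range.

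The stromal programme lay under H3K27ac. Of 48 genes on the stromal identity and stromal matrix lists, 37 were under H3K27ac only, 9 under both, 1 under H3K27me3 only and 1 under neither, so that 46 of 48 carried H3K27ac beside 50.1% of all genes. The matrix genes were the more uniform, with 24 of 27 under H3K27ac only. Their H3K27ac regions were 56.8 kb long at the median, with a median signal of 1.56, 1.22 and 1.51 RPKM. Prrx1, a homeobox regulator of limb and stromal mesenchyme, had 2.72, 1.78 and 2.26 in an 85 kb region (chromosome 1, 163238501 to 163323500). Ly6a, which encodes the surface marker Sca-1, had 2.56, 1.82 and 2.34 in 12 kb. Twist1, a basic helix-loop-helix factor of mesenchyme, had 2.11, 1.32 and 1.87. In these 3 genes replicate 2, the library with the fewest reads, was the lowest, and every library was above its own median over all H3K27ac regions.

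Pdgfra, a growth factor receptor and surface marker of MSCs, had 1.42, 1.16 and 1.57 RPKM over 26.5 kb. Col1a1, the main collagen of bone and stroma, had 1.82, 1.66 and 1.79 over 52 kb (chromosome 11, 94910501 to 94962500). Cd44, the hyaluronan receptor, had 1.79, 1.34 and 1.64 over 100.5 kb. The exceptions were Nes, an intermediate filament gene of progenitors, which lay under H3K27me3 only at 1.35, 1.28 and 1.68, and Loxl2, a collagen cross-linking enzyme, which lay under neither mark.

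Of the 9 stromal genes under both marks, 7 were identity genes (Twist2, Kitl, Alcam, Lepr, Mcam, Cspg4 and Nt5e) and 2 encoded the matrix proteoglycans decorin (Dcn) and lumican (Lum). Twist2 had a 5 kb H3K27ac region, at 0.735, 0.791 and 1.34, wholly inside an 84.5 kb H3K27me3 region, at 1.64, 1.82 and 1.95. Per all reads the H3K27me3 density was above the H3K27ac density in all 3 replicates. Scaled to the reads inside regions the order turned in replicate 3, at 3.35 for H3K27ac against 2.92 for H3K27me3. Lepr, the leptin receptor and a marker of marrow stroma, had 0.971, 0.753 and 1.24 of H3K27ac and 0.796, 0.767 and 0.818 of H3K27me3. Lum had 2.21, 0.844 and 1.16 of H3K27ac and 0.461, 0.670 and 1.26 of H3K27me3, and its libraries disagreed more than those of most named genes. The 1.5 kb H3K27ac region over Alcam rested on 2 reads in replicate 2, below the 3 reads that a count of 0 allows.

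The fate programmes of MSCs were split between the marks. Of 66 genes on the osteogenic, adipogenic and chondrogenic lists, 23 were under H3K27ac only, 28 under H3K27me3 only, 10 under both and 5 under neither. The shares under H3K27ac only and under H3K27me3 only were 34.8% and 42.4%, beside 46.9% and 25.3% of all genes. The share under both marks was 15.2%, beside 3.15% of all genes. Some of the H3K27ac calls rest on few reads. With 10 or more reads in every library the lists had 10, 10 and 9 genes under H3K27ac, against 11, 12 and 10.

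Among 9 osteogenic regulators, Runx2, Sp7 and Atf4 were under H3K27ac only, Dlx5 and Msx1 under both, and 4, among them Dlx3, Dlx6 and Msx2, under H3K27me3 only. Runx2, the master regulator of the osteoblast, had 1.20, 0.799 and 1.14 RPKM of H3K27ac over 52.5 kb, a region shared with the start of Supt3. Each value was below the median of all H3K27ac regions in its library. Sp7, which acts after Runx2, had 1.36, 1.22 and 1.15 over 86.5 kb, but that region also covered the starts of Espl1, Pfdn5, Myg1 and Aaas, so its signal does not belong to Sp7 alone. Dlx5, a homeobox gene of bone and limb, had a 2.5 kb H3K27ac region with 1.25, 1.05 and 1.16 (chromosome 6, 6880501 to 6883000), resting on at least 10 reads per library. It lay wholly inside a 65 kb H3K27me3 region with 1.62, 1.94 and 2.23, which also covered Dlx6. Per all reads H3K27me3 was the denser mark at Dlx5 in every replicate, but scaled to the reads inside regions the values were 3.02, 3.13 and 2.90 for H3K27ac and 2.60, 2.91 and 3.35 for H3K27me3, which turns the order in replicates 1 and 2. Msx1, a homeobox gene of skull and limb, had the same arrangement, with a 3 kb H3K27ac region at 0.919, 0.791 and 0.784 inside a 191 kb H3K27me3 region at 1.65, 1.91 and 1.84. The H3K27ac region of Msx1 rested on fewer than 10 reads in replicate 2.

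None of the 4 osteogenic ligands was under H3K27ac only. Bmp2 and Bmp4, bone morphogenetic proteins, and Wnt1 lay under H3K27me3 only and Wnt10b under both. Wnt1 had the highest H3K27me3 density of them, 2.47, 2.58 and 3.01 over 23.5 kb, and Bmp2 had 1.08, 1.10 and 0.974 over 184.5 kb. Of 13 matrix and mineral genes, Col1a1, Spp1, Enpp1 and Ank were under H3K27ac only, Alpl under both, Ibsp, Dmp1, Mepe, Sost and Phospho1 under H3K27me3 only, and Bglap, Bglap2 and Phex under neither. Ibsp, bone sialoprotein, had 0.940, 1.12 and 1.15 of H3K27me3, in a region shared with Mepe. Sost, the osteocyte inhibitor of Wnt signalling, had 1.63, 1.89 and 1.82. Alpl, the alkaline phosphatase of mineralising cells, lay at a border, where an 18 kb H3K27ac region (1.04, 0.879 and 0.915) and a 25.5 kb H3K27me3 region (1.03, 1.14 and 0.933) shared 3.5 kb. With regions below the lower quartile of signal left out, Alpl kept H3K27me3 only. Bglap and Bglap2 are near-identical neighbours, in which reads may not be placed uniquely.

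In the adipogenic list the regulators and the effectors differed in class. Of 10 regulators, 7 (Pparg, Cebpa, Cebpb, Cebpd, Klf4, Klf5 and Ebf1) were under H3K27ac only, 2 (Ebf2 and Zfp423) under both, and Klf15 under H3K27me3 only. Of 10 effectors, Fabp4 and Plin4 were under H3K27ac only, Lpl under both, 6 (Adipoq, Lep, Plin1, Retn, Pck1 and Cd36) under H3K27me3 only and Cidec under neither. Pparg, the nuclear receptor that drives fat formation, had 0.962, 1.05 and 0.818 RPKM of H3K27ac over 36.5 kb, which is below the median of all H3K27ac regions in replicates 1 and 3. Cebpd, an early factor of the same cascade, had 2.17, 1.58 and 1.72 over 12 kb, above that median in every library. Fabp4, a fatty acid carrier, had 1.53, 1.22 and 2.03. Adipoq, the gene of the fat hormone adiponectin, had 0.856, 0.868 and 0.763 of H3K27me3 over 15.5 kb, and Lep, the leptin gene, had 1.38, 1.58 and 1.53 over 187 kb. The H3K27me3 density of Lep was above that of Adipoq in every library.

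Among the chondrogenic genes, the regulators Sox9, Sox6 and Sox5 fell into 3 classes, H3K27ac only, both and H3K27me3 only. Sox9, the first regulator of cartilage, had 1.10, 0.712 and 0.960 of H3K27ac, below the median region in every library. Of 17 matrix and ligand genes, 6 (Col2a1, Col10a1, Col11a1, Comp, Hapln1 and Prg4) were under H3K27ac only, Acan and Matn3 under both, 8 under H3K27me3 only and Ucma under neither. Acan, the main cartilage proteoglycan, had an 8.5 kb H3K27ac region at 1.53, 1.02 and 1.17 inside a 78 kb H3K27me3 region at 0.740, 1.03 and 0.840. Cartilage matrix genes were thus found in all 4 classes.

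The programmes of other lineages lay mostly under H3K27me3. Over 9 lists (skeletal muscle, heart, neural, neural crest and melanocyte, endoderm, epithelium, blood, endothelium, germline and pluripotency), 136 of 168 genes (81.0%) were under H3K27me3 only, beside 25.3% of all genes. Another 9 were under H3K27ac only, 6 under both and 17 under neither. The domains were 51.5 kb long at the median, with a median signal of 1.45, 1.61 and 1.62 RPKM. The neural list had the densest regions of the 9, with 25 of 28 genes under H3K27me3 only and a median of 2.00, 2.27 and 2.22 over regions of 68 kb.

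Pax6, a regulator of eye and forebrain, had the highest H3K27me3 density of the class, 3.20, 3.84 and 4.14 over 49 kb (chromosome 2, 105646001 to 105695000). Neurog2, a proneural factor, followed among the listed genes with 2.91, 3.36 and 3.58 over 35.5 kb. Olig2, whose CpG-rich promoter is shown, had 1.71, 1.89 and 1.98 over 203 kb. In these genes replicate 1 was the lowest of the 3 libraries, as it was for the share of reads in regions.

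In heart, 16 of 18 genes were under H3K27me3 only and 0 under H3K27ac. Nkx2-5, the cardiac homeobox gene, had 2.26, 2.50 and 2.77 over 69.5 kb (chromosome 17, 26796501 to 26866000). Gata4, a zinc finger factor of heart and endoderm, had 1.94, 2.15 and 2.17 in a 334 kb region that also covered Neil2, Blk, Fam167a and Tdh. In skeletal muscle, 14 of 18 were under H3K27me3 only, including Myod1 at 1.44, 1.66 and 1.56 and Pax7 at 1.84, 2.04 and 2.10. Among the exceptions, under H3K27ac only, Tnnt3, a fast muscle troponin, had 2.98, 2.40 and 2.85, and Six4, a homeobox gene, had 1.56, 1.34 and 1.62. Both were above the median H3K27ac region in every library.

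Endoderm had 17 of 18 genes and epithelium 16 of 19 under H3K27me3 only. Foxa2, a pioneer factor of endoderm, had 1.82, 1.97 and 2.05 over 129 kb. Cdx2, an intestinal homeobox gene, had 1.73, 1.93 and 1.92 in a 239 kb region shared with Gsx1, Pdx1 and Urad. Cdh1, the gene of E-cadherin, had 1.25, 1.36 and 1.52, and Grhl2, an epithelial regulator, had 1.38, 1.53 and 1.58 over 198.5 kb. Neural crest genes were under H3K27me3 only in 10 of 12 cases, with Sox10 at 1.63, 1.83 and 1.92.

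Of 26 blood genes, 17 were under H3K27me3 only and 6 under neither mark, namely Ptprc, Spi1, Csf1r, Adgre1, Cd79a and Hbb-bs. Ptprc encodes the leukocyte antigen CD45 and Spi1 the myeloid factor PU.1, and both have CpG-poor promoters, with ratios of 0.212 and 0.176. Gata1, the erythroid factor, lay under H3K27me3 at 0.717, 0.659 and 0.598 over 11.5 kb of chromosome X, below the median H3K27me3 region in every library, and under neither mark with the lowest quartile of regions left out. Cd68, a lysosomal protein of macrophages, and Runx1, a factor of blood stem cells, were under H3K27ac only. Endothelial genes were under H3K27me3 only in 12 of 16 cases, with Cdh5, VE-cadherin, at 1.17, 1.27 and 1.16. Of 18 germline and pluripotency genes, 14 were under H3K27me3 only and 0 under H3K27ac. Pou5f1 had 1.14, 1.53 and 1.62 over 31 kb, while Nanog had 1.21, 0.897 and 1.21 over 2.5 kb, a region shorter than those of the other regulators named.

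**Figure D4:**
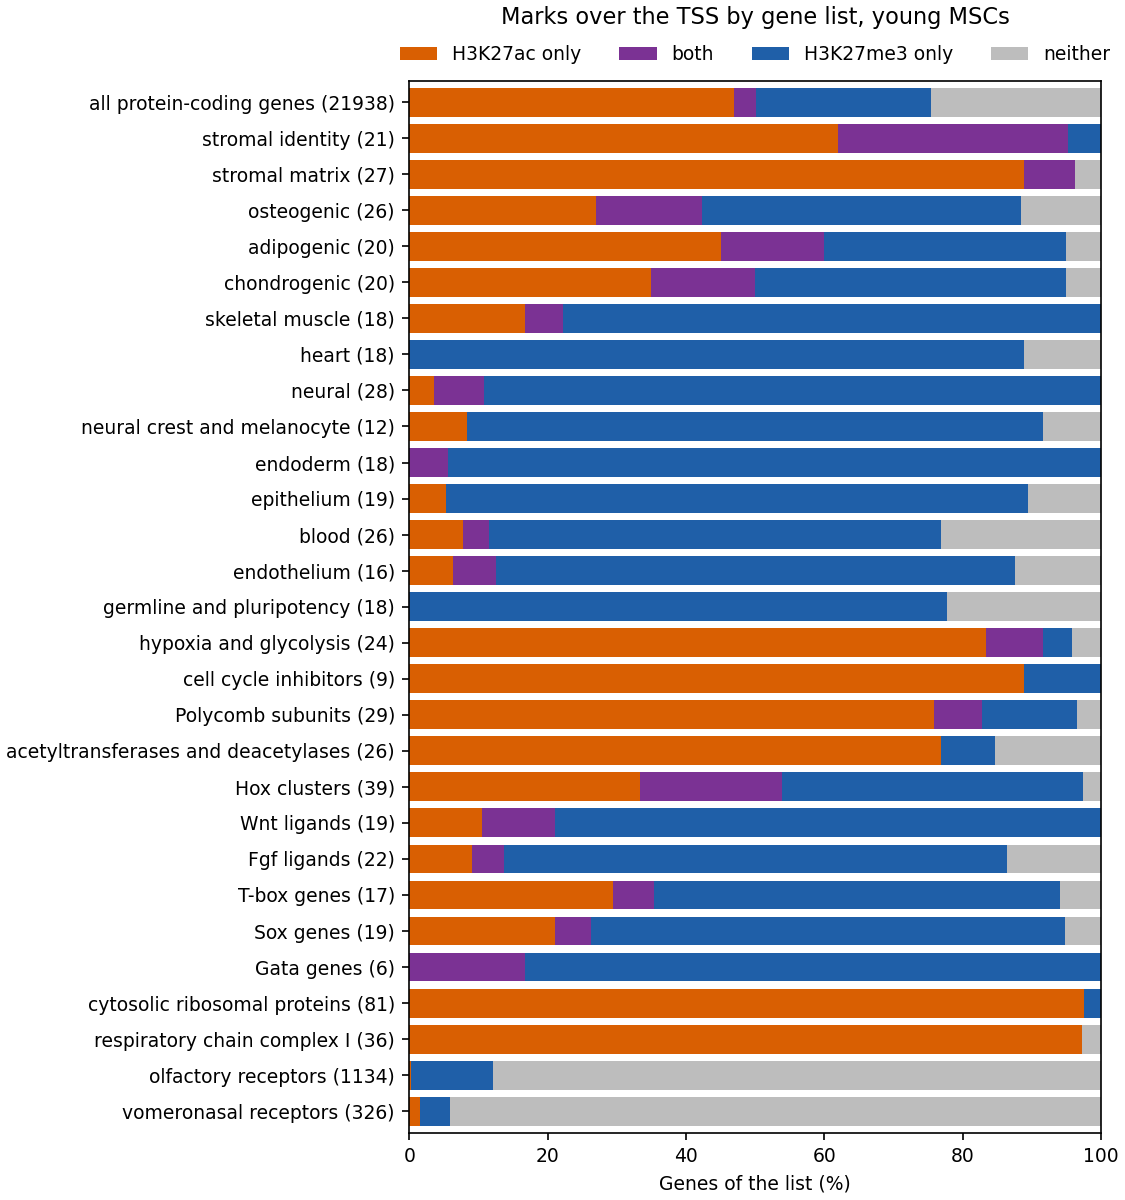
Share of the genes of each list (%, number of genes in parentheses) under H3K27ac only, both marks, H3K27me3 only or neither at the TSS, with all protein-coding genes on top. The stromal, ribosomal and complex I lists were mostly under H3K27ac, the lists of other lineages under H3K27me3 (81.0% of 168 genes), and the receptor families under neither mark.

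Signalling and transcription factor families leaned to H3K27me3. Of 19 Wnt ligands, 15 were under H3K27me3 only, with Wnt5a and Wnt5b under H3K27ac only and Wnt10b and Wnt11 under both. Of 22 Fgf ligands, 16 were under H3K27me3 only, Fgf7 and Fgf20 under H3K27ac only, Fgf2 under both and 3 under neither. The large receptor families of smell carried little of either mark. Of 1134 olfactory receptor genes, 997 were under neither mark and 135 under H3K27me3 only, and of 326 vomeronasal receptor genes, 307 were under neither. For Sox genes the count under H3K27me3 only was 13 of 19, for T-box genes 10 of 17 and for Gata genes 5 of 6.

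The Hox clusters were divided cluster by cluster. All 10 Hoxb genes were under H3K27me3 only, in the 644.5 kb region at 2.10, 2.40 and 2.51 RPKM. Of 11 Hoxa genes, 8 were under H3K27ac only, 2 under both and 1 under neither. Of 9 Hoxc genes, 5 were under H3K27ac only, 3 under both and 1 under H3K27me3 only. Of 9 Hoxd genes, 6 were under H3K27me3 only and 3 under both. Hoxa11 and Hoxa13 were the Hoxa genes under both marks, with separate H3K27ac regions and a shared H3K27me3 region of 105.5 kb. Hoxa11 had 2.46, 1.92 and 2.15 of H3K27ac and 2.00, 2.31 and 2.64 of H3K27me3. It lay at a border, where a 39.5 kb H3K27ac region and the H3K27me3 region shared 3.5 kb. That H3K27ac region also covered the starts of Hoxa3, Hoxa6, Hoxa7, Hoxa9, Hoxa10 and Gm28308, so its signal does not belong to Hoxa11 alone. The start sites of the 39 Hox genes lay in only 8 H3K27ac and 5 H3K27me3 regions, so the genes are not separate observations.

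Genes of general cell function carried H3K27ac. Of 81 cytosolic ribosomal protein genes, 79 were under H3K27ac only and 2, Rpl3 and Rpl17, under H3K27me3 only. With the TSS of any basic transcript Rpl3 lay under H3K27ac only and Rpl17 under both marks. Of 36 genes of respiratory chain complex I, 35 were under H3K27ac only and Ndufa1, an X-linked gene, under neither. Hypoxia and glycolysis genes were under H3K27ac only in 20 of 24 cases. Ldha, lactate dehydrogenase, had 1.52, 1.12 and 1.56, and Vegfa 1.40, 0.984 and 1.17. Hk1, a hexokinase gene, was the only one under H3K27me3 alone, at 1.27, 1.40 and 1.30.

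The enzymes of the marks themselves were mostly acetylated. Of 29 Polycomb subunit genes, 22 were under H3K27ac only, among them Ezh2 at 1.21, 1.02 and 0.916, while 4 (Cbx2, Cbx7, Cbx8 and Phf19) were under H3K27me3 only. Of 26 acetyltransferase and deacetylase genes, 20 were under H3K27ac only and Hdac4 and Hdac9 under H3K27me3 only. With the TSS of any basic transcript or of the APPRIS principal transcript, 25 were under H3K27ac and 0 under H3K27me3, so the calls of Hdac4 and Hdac9 rest on the gene record's start. Slc25a1, the mitochondrial citrate carrier that exports citrate to the cytosol, had 1.26, 0.829 and 1.22 of H3K27ac over 10.5 kb. Of 9 cell cycle inhibitors, 8 were under H3K27ac only. Cdkn2a, which encodes p16 and p19ARF, had 1.87, 1.57 and 1.57 in a region over the start of its gene record, shared with Cdkn2b. These values were above the median H3K27ac region in every library. With the TSS of any basic transcript Cdkn2a lay under both marks, so a start other than that of the gene record lay under H3K27me3. Which product each start serves was not tested, so the H3K27ac values do not stand for both products. The exception was Cdkn1c, an imprinted gene, under H3K27me3 at 1.41, 1.63 and 1.69.

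**Figure D5:**
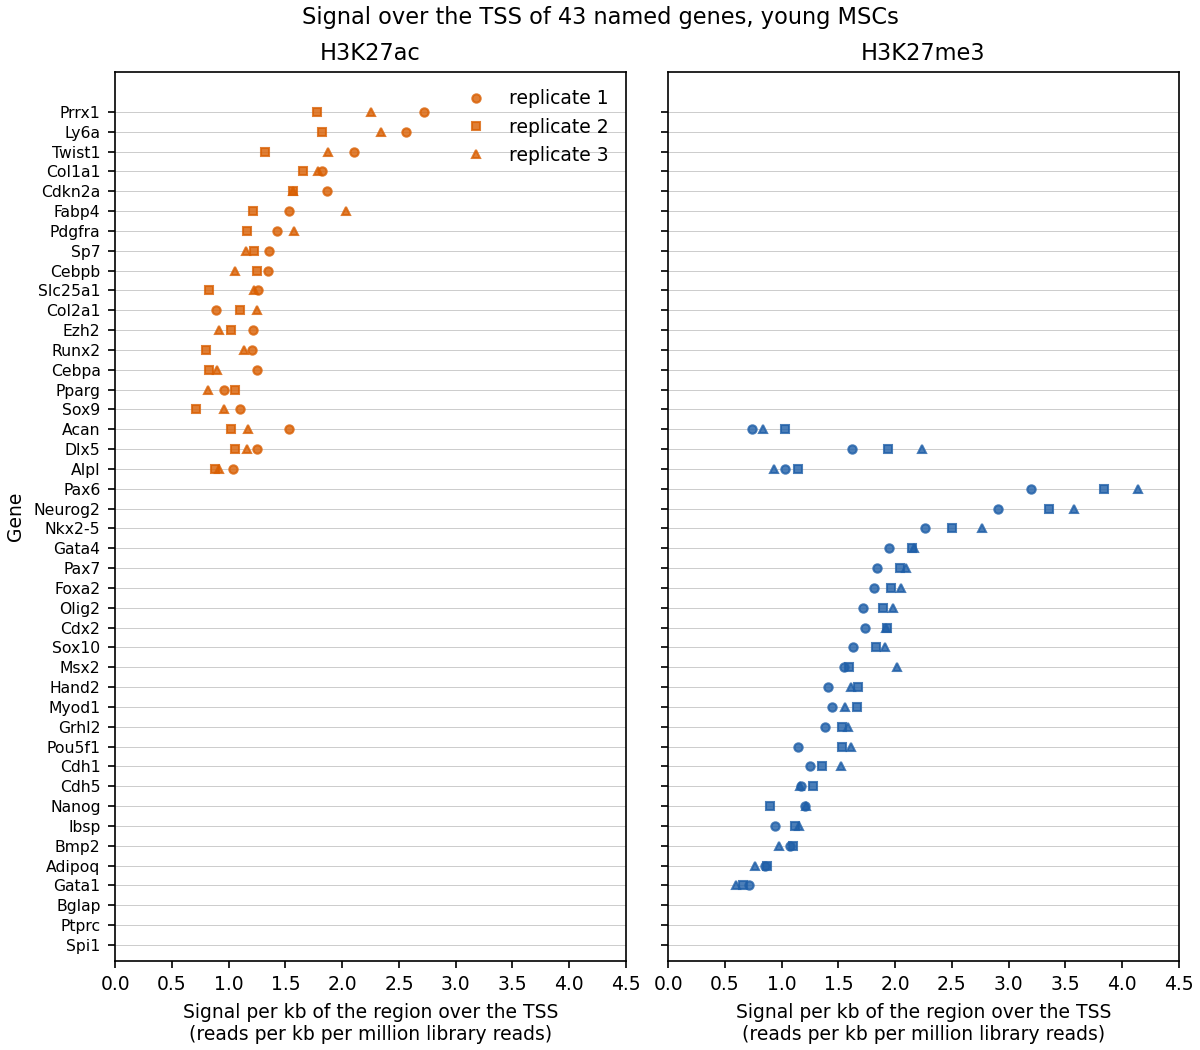
Signal per kb of the region over the TSS (RPKM) of 43 named genes in the 3 young libraries of H3K27ac (left) and H3K27me3 (right), with 1 marker per replicate and genes without a region left blank. Stromal genes such as Prrx1 appear only on the left, regulators of other lineages such as Pax6 only on the right, and Acan, Dlx5 and Alpl on both sides.

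The highest H3K27ac densities among genes with H3K27ac only were found in short regions. Gpx7, an endoplasmic reticulum peroxidase, had 4.04, 3.16 and 3.21 over 3.5 kb, followed by Rnase10, Zfp354c, Acbd5 and Wdr11 in regions of 3 to 4.5 kb. For H3K27me3 only, Pax6 was followed by Grin2c, an NMDA receptor subunit, at 3.44, 3.78 and 3.75, by Skor1, a corepressor of neurons, at 3.04, 3.60 and 4.16, by Gm4881 and by Neurog2. Among genes under both marks, Gm10800, a predicted gene on chromosome 2 (98661501 to 98668000), had 10.97, 17.65 and 9.05 of H3K27ac and 6.63, 6.93 and 6.50 of H3K27me3. Its regions had the same bounds in both marks, 45.5% of the region was repeat, and its H3K27ac was highest in the library with the fewest reads. Whether reads from elsewhere were placed there was not tested. Sfi1, Hoxa11, Trpm8 and Hoxc11 came next.

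The 691 genes under both marks fell into arrangements that the TSS alone does not show. In 350 (50.7%) the H3K27ac region lay wholly inside the H3K27me3 region, as at Twist2, Dlx5 and Msx1. In 314 (45.4%) the regions overlapped in part, as at Alpl. In 23 the H3K27me3 region lay inside the H3K27ac region, as at Dcn and Mcam, and in 4 the bounds were the same. For the nested H3K27ac regions the median length was 3 kb against 37.8 kb for the surrounding H3K27me3, and the median number of H3K27ac reads was 18, 11 and 18 in replicates 1 to 3. These small regions rest on few reads. For all 691 genes the median H3K27ac density was 1.19, 1.03 and 1.15, and the median H3K27me3 density 0.965, 1.05 and 1.05. Which mark was denser at a gene depended on the scaling. Per all reads, H3K27ac was the denser mark in all 3 replicates at 233 genes and H3K27me3 at 166. Scaled to the reads inside regions, these counts were 544 and 23. Where 10 or more reads were asked of a region in every library, 480 of the 691 genes (69.5%) stayed under both marks.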

How the data were processed

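CUT&RUN libraries of young MSCs, 3 per mark, were grouped by their titles in the labels. Per the labels, the authors' processing notes name mm10 or GRCm38, Bowtie2 and Picard, with no role or version. The peak caller and duplicate treatment are not given in the sources used here. The authors called regions in steps of 500 bp on old and young libraries together and deposited a signal value per region and library. The deposited signal is named RPKM, but 100% of values were whole multiples of 1 step within 0.001 reads, the step being 1 read scaled to 1000000 library reads and a constant 0.5 kb. Whole reads were recovered from it and divided by region length to give the RPKM reported. The plan had assumed RPKM per region length. Whether a read could count in more than 1 step is not given, so read numbers are those of the deposited scale. The 6 columns of old libraries were not used.

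Genes were those of GENCODE vM21 basic, protein-coding, without mitochondrial genes, at the 5′ end of the gene record. A list's count stands beside the share of all genes, with no test. Named genes were 43 fixed genes, the 5 densest per marked class (30 or more reads in each library, repeats under 50% of the region, 1 per region) and the gene of the longest region of each class. Other genes were named from the lists or as exceptions after their values were seen. The members and lists were chosen with earlier results of these data known. Means were compared by exact permutation. Same-numbered libraries of the marks came from the same cells per the labels, yet their deviations from the mean over 5033 overlapping pieces correlated at −0.05, −0.02 and −0.07. Spearman correlations between replicates across regions were 0.464 to 0.493 for H3K27ac and 0.651 to 0.685 for H3K27me3. Scripts used Python 3.11.15, numpy 2.4.6, pandas 2.3.3, scipy 1.17.1 and pysam 0.24.0 and were tested on simulated data. Alternatives covered the TSS definition, the region filter, the scaling, the CpG criteria and each library left out. Values of some listed genes are not reported here.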

Additional observations from a re-analysis of the deposited data

How the results depend on the processing

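The direction of each of the 3 tested differences between the marks held under all alternatives run, but not always the separation of the libraries. With all reads over summed length the log2 difference of signal per kb was −0.14 (exact permutation test, two-sided, p = 0.3), and the libraries of the marks overlapped. Leaving out each library in turn gave a difference in reads in regions of 24.5 to 28.3 percentage points, a log2 difference of median signal per kb of −0.63 to −0.48, log2 ratios of TSS to other regions of 0.08 to 0.16 for H3K27ac and 0.56 to 0.60 for H3K27me3, and a difference of these ratios of 0.41 to 0.49. With the replicate block the values were 26.8, −0.54 and 0.46, each at p = 0.25, the smallest that a paired exact permutation test of 3 pairs can give. Classes, lists and overlaps rest on regions called on pooled libraries, so no library could be left out there.

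Of 336 recomputed list counts 319 stayed within 1.5 times the value given, and of 28 class counts 27. With any TSS of a basic transcript, 2 cell cycle inhibitors, 0 acetyltransferase and deacetylase genes and 1 ribosomal protein gene were under H3K27me3, and 2 Gata genes and 7 olfactory receptors under H3K27ac. Cdkn2a and Rpl17 then lay under both marks. With the APPRIS principal transcript these were 0, 1 and 2 for the enzymes, ribosomal proteins and Gata genes, and Rpl3 lay under H3K27ac only. Counting regions within 1 kb of the TSS placed 1622 genes under both marks, with 12 Polycomb subunit, 4 acetyltransferase and deacetylase, 7 ribosomal and 2 complex I genes under H3K27me3, and 2 epithelial and 5 Fgf genes under H3K27ac. Slc25a1 and Col2a1 then lay under both. With regions at or above the lower quartile of signal, 1 stromal matrix gene was under H3K27me3, 7 osteogenic and 3 Sox genes under H3K27ac, and Pparg, Sox9 and Gata1 under neither mark and Alpl under H3K27me3 only. The length under both marks was 7.05 Mb with 10 or more reads per library and 6.53 Mb with that quartile. The CpG-rich share was 67.0% for H3K27ac only and 26.2% for H3K27me3 only in the 250 bp before to 50 bp after the TSS, and 73.7% and 30.0% with the APPRIS TSS. A ratio of 0.75 gave 46.6%, 13.8%, 32.1% for both and 2.72% for neither. On the autosomes alone, an alternative chosen after seeing the data like the scaling to reads inside regions at genes under both marks, 10056, 5429, 691 and 4631 genes were under H3K27ac only, H3K27me3 only, both and neither. The cause of these shifts was not tested.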

Other observations

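Gene families, grouped by the stem of the symbol where 20 or more genes shared it, also sorted by class. They were not kept apart from the lists. Some keratins are also on the epithelium list, and some collagens on the stromal matrix, osteogenic and chondrogenic lists. The 102 stems were not chosen for their class, but those named here were picked after their values were seen. Of 53 keratin genes (Krt), the intermediate filaments of epithelia, 50 were under H3K27me3 only. So were 15 of 24 Serpina genes, which encode secreted protease inhibitors, 15 of 26 kallikreins (Klk) and 12 of 20 semaphorins (Sema), which guide axons and vessels. The promoters of the keratin, Serpina and kallikrein genes included 0 that were CpG-rich, while 65% of the semaphorin promoters were.

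All 28 Polr genes, subunits of the RNA polymerases, lay under H3K27ac only, as did 48 of 49 mitochondrial ribosomal protein genes (Mrpl), 34 of 35 Vps genes of vesicle sorting and 34 of 36 Cep genes of the centrosome. Of 394 Zfp zinc finger genes, 286 were under H3K27ac only. All 22 alpha-defensin genes (Defa) and all 22 beta-protocadherin genes (Pcdhb) were under neither mark, together with 33 of 34 Rhox homeobox genes, which lie on chromosome X, where 62.7% of all genes were under neither mark, and with 24 of 25 prolactin family genes (Prl) and 21 of 22 major urinary protein genes (Mup). Several of these families are tandem arrays of similar copies, in which reads may not be placed uniquely. Of 45 collagen genes (Col), 17 were under H3K27ac only, 18 under H3K27me3 only, 7 under both and 3 under neither.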
